A study of Homo sapiens with 6 samples.

Results

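The mitochondrial genome transcripts are the RNAs made from the small circular genome inside mitochondria. They were chosen as every listed gene whose symbol starts with MT-, which gave 13 of the 35793 genes listed, and all 13 were protein-coding. GENCODE 29 on GRCh38 annotates 37 genes on this genome, and its 2 ribosomal RNAs and 22 transfer RNAs are not analysed here. All 13 mRNAs passed the filter on low values, a mean of 10 or more normalized counts over the 6 libraries.

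RNA was measured in cardiomyocytes differentiated from WTC11, an established line of human induced pluripotent stem cells. Wild-type cells were compared with an isogenic line in which both copies of STK25, a serine/threonine kinase gene, had been disrupted by CRISPR/Cas9. Each genotype had 3 biological replicates collected on day 15 of differentiation, and the knockout was 1 cell line, so the edit and any other difference between the lines cannot be told apart. No treatment is named in the labels, and both genotypes followed the same published differentiation protocol.

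The mitochondrial genome is transcribed as long polycistronic RNAs from both of its strands, which are cut at the transfer RNAs into single messages. The messages encode core subunits of respiratory complexes I, III and IV and of the ATP synthase (complex V). All other subunits of these complexes, and the whole of complex II, are made from nuclear genes and imported. Cardiomyocytes are rich in mitochondria because contraction depends on oxidative ATP production.

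Of the 13 mRNAs, 12 carry the sequence of the strand whose coordinates run forward on the map, and MT-ND6 alone lies on the opposite strand. Most mitochondrial mRNAs end without a 3′ untranslated stretch, and a poly(A) tail completes the stop codon where the gene itself supplies only its first base or bases. In the annotation 7 of the 13 mRNAs had a complete stop codon and 6 did not. The last 30 annotated bases of 5 of these genes are shown. MT-ND2, MT-ND5 and MT-CYB are shown for their shares below, MT-ND6 for its strand, and MT-CO1 as a further example of an annotated stop codon. The capitals mark the bases of the annotated stop codon that the gene supplies, read 5′ to 3′ on the coding strand. The sequences come from the GENCODE 29 transcripts, and the ends of the RNAs themselves were not measured.
MT-ND2, chrM:5482-5511, plus strand: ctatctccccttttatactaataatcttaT
MT-CO1, chrM:7416-7445, plus strand: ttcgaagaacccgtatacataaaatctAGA
MT-ND5, chrM:14119-14148, plus strand: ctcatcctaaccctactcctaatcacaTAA
MT-ND6, chrM:14149-14178, minus strand: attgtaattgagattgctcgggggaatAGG
MT-CYB, chrM:15858-15887, plus strand: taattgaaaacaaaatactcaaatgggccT
As annotated, MT-ND5 and MT-ND6 end tail to tail at neighbouring bases, 14148 and 14149, on opposite strands. Whether the counting used strand is not given in the sources used here, so reads from either strand of the MT-ND6 stretch cannot be told apart. MT-ND6 is also the message known to lack a poly(A) tail in human cells.

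MT-ATP8 and MT-ATP6, and MT-ND4L and MT-ND4, share bicistronic messages, and the overlaps are shown because a read within them belongs to both genes. The capitals mark the shared bases, with 12 bases on either side.
MT-ATP8 and MT-ATP6, chrM:8515-8584, plus strand: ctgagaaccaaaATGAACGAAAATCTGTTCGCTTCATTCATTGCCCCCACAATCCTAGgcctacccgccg
MT-ND4L and MT-ND4, chrM:10748-10778, plus strand: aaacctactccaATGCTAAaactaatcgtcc
The first overlap was 46 bases long and the second 7 bases. MT-ATP8 normalized counts were 0.0823 ± 0.0227 of those of MT-ATP6 in the wild type and 0.0766 ± 0.0064 in the knockout (SD, n = 3). MT-ND4L normalized counts were 0.169 ± 0.055 of those of MT-ND4 in the wild type and 0.167 ± 0.032 in the knockout. Both ratios overlapped between genotypes, so within each bicistronic message the balance of counts did not differ beyond the spread of replicates.

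The libraries held from 22443904 to 53224112 reads assigned to genes, a 2.37-fold range. The targeted gene checks the labels: STK25 stood at 8874, 6774 and 8710 normalized counts in wild-type replicates 1, 2 and 3 and at 3906, 3434 and 3820 in the knockout. Its mean in the knockout was 45.8% of the wild type, a log2 fold change of -1.12 ± 0.19 (limma adjusted p = 0.0090, and 0.0609 without wild-type replicate 1). Every library still held at least 3073 STK25 reads. Over all genes limma called 1982 of 15536, or 12.8%, at an adjusted p under 0.05, with 5.97% of the tested genes higher and 6.79% lower in the knockout. These were 927 higher and 1055 lower genes, and 549 and 1457 when libraries were scaled to equal totals. Wild-type replicate 2 and knockout replicate 1 stood apart from the other replicates of their genotypes, with the highest mitochondrial values. Over all tested genes, centred on the mean of each genotype, these 2 libraries also had the highest correlation across genotypes, 0.448. Results are given with and without them.

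The 13 mRNAs together took 2.18%, 3.90% and 2.11% of all counts in wild-type replicates 1, 2 and 3, and 3.33%, 1.25% and 1.62% in knockout replicates 1, 2 and 3. One library of each genotype was high and the ranges overlapped. The mean was 2.73 ± 1.01% in the wild type and 2.07 ± 1.11% in the knockout (SD, n = 3; two-sided exact permutation p = 0.5). Counting error was small beside this spread: the exact (Clopper-Pearson) 95% interval of the lowest share, in knockout replicate 2, ran from 1.25% to 1.26%. Intervals cover counting error only, since the labels mention no molecular identifiers. In bulk RNA, fewer cells rich in mitochondria and less mitochondrial RNA per cell cannot be told apart.

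None of the 13 mRNAs was called by limma or by edgeR, where all genes were called at 12.8% and 12%, and none had an unadjusted p under 0.05. None had levels that separated the genotypes, against 33.4% of all tested genes. The log2 fold change was negative for 9 of the 13, with a median of -0.15 against 0.0052 for all genes tested. This median ran from -0.65 without knockout replicate 1 to 0.32 without wild-type replicate 2, and was also positive, 0.28, without knockout replicate 2, so its sign depended on single libraries. Scaling the libraries to equal totals moved the median of all genes to -0.27 and that of the 13 mRNAs to -0.43.

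**Figure D1:**
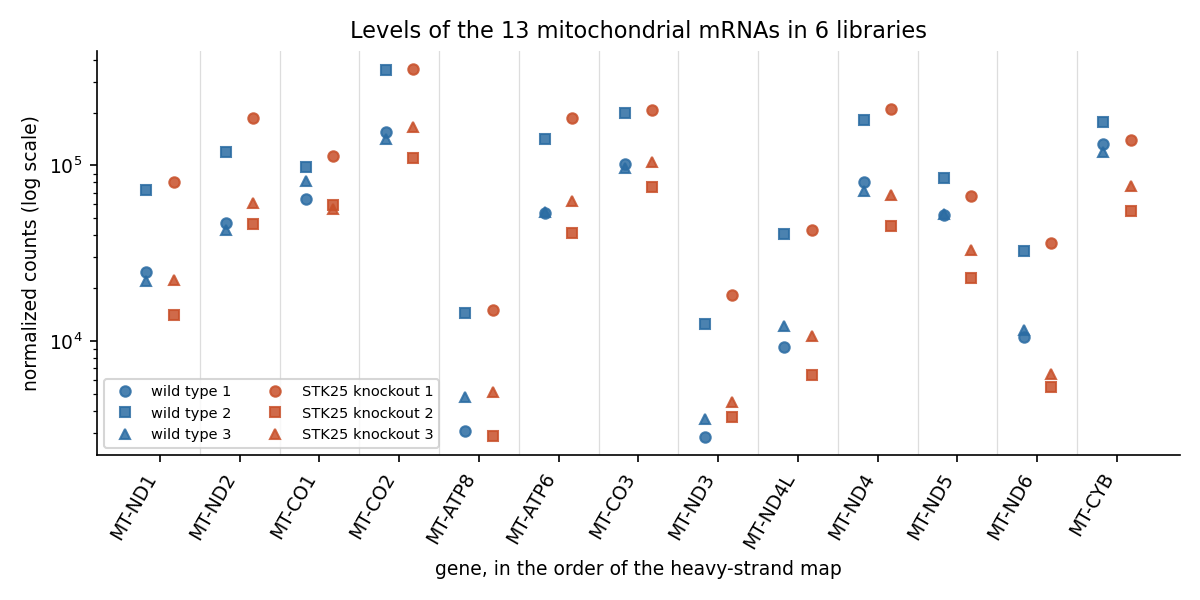
Normalized counts (log scale) of the 13 mitochondrial mRNAs, in the order of the map, with 1 point per library. Squares of the wild type and circles of the knockout, which are wild-type replicate 2 and knockout replicate 1, are the highest of their genotype for every gene, and the genotypes overlap for every gene.

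Complex I, the NADH dehydrogenase that feeds electrons into the chain, takes 7 of the 13 mRNAs. MT-ND1, a subunit of the membrane arm next to the quinone site, stood at 24647, 72176 and 21873 normalized counts in the wild type and at 80609, 14010 and 22367 in the knockout. MT-ND2, another membrane-arm subunit, stood at 47062, 119499 and 42693 in the wild type and at 185646, 46114 and 61130 in the knockout. Both were high in 1 library of each genotype and overlapped elsewhere. Their log2 fold changes were -0.21 ± 0.69 and 0.37 ± 0.59 (SE, n = 3; limma adjusted p = 0.890 and 0.745), with 95% intervals from -1.81 to 1.40 and from -1.0 to 1.75.

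MT-ND4, which forms part of the proton-pumping arm, stood at 80763, 181214 and 71961 normalized counts in the wild type and at 211288, 45184 and 67603 in the knockout. MT-ND5, the largest mitochondrially encoded subunit and the far end of that arm, stood at 52353, 85026 and 52978 in the wild type and at 67147, 22699 and 33105 in the knockout. For MT-ND5 the knockout replicates 2 and 3 lay below all wild-type libraries, and knockout replicate 1 lay among them. Its log2 fold change was -0.74 ± 0.42 (limma adjusted p = 0.302; 95% interval from -1.71 to 0.22).

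MT-ND3, MT-ND4L and MT-ND6 are small membrane-arm subunits. Wild-type libraries held 2843 to 12496 normalized counts of MT-ND3 and knockout libraries 3696 to 18361. For MT-ND4L the ranges were 9190 to 40730 and 6365 to 42876. MT-ND6 stood at 10457, 32409 and 11596 in the wild type and at 36126, 5465 and 6469 in the knockout. Knockout replicates 2 and 3 held fewer MT-ND6 counts than any wild-type library, while knockout replicate 1 held the most. Its log2 fold change was -0.54 ± 0.75 (limma adjusted p = 0.706). The ratio of MT-ND6 to its neighbour MT-ND5 was 0.200, 0.381 and 0.219 in the wild type and 0.538, 0.241 and 0.195 in the knockout, so the 2 did not keep 1 ratio across libraries.

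MT-CYB encodes cytochrome b, the only mitochondrially encoded subunit of complex III. It stood at 131904, 176164 and 119643 normalized counts in the wild type and at 140344, 54999 and 75995 in the knockout. Knockout replicates 2 and 3 were below every wild-type library, and knockout replicate 1 was among them. Its log2 fold change was -0.75 ± 0.38 (limma adjusted p = 0.254; 95% interval from -1.63 to 0.14), the lowest of the 13.

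Complex IV, cytochrome c oxidase, takes its catalytic core from MT-CO1, MT-CO2 and MT-CO3. MT-CO1 stood at 64541, 98434 and 81475 normalized counts in the wild type and at 113390, 59147 and 56489 in the knockout. MT-CO2 stood at 156076, 351778 and 142488 in the wild type and at 354401, 110989 and 164775 in the knockout. MT-CO3 stood at 102302, 198374 and 97281 in the wild type and at 206423, 75088 and 104420 in the knockout. The log2 fold changes of the 3 lay between -0.15 and -0.090, and each was smaller than its standard error. MT-CO1 had the narrowest error of the 13, 0.34, and its 95% interval ran from -0.93 to 0.63.

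The ATP synthase takes MT-ATP6 and MT-ATP8, parts of its membrane sector. MT-ATP6 stood at 53583, 142020 and 54460 normalized counts in the wild type and at 187500, 41364 and 62772 in the knockout (log2 fold change 0.08 ± 0.61, limma adjusted p = 0.956). MT-ATP8 ranged over 3078 to 14456 in wild-type libraries and 2863 to 14922 in knockout libraries (log2 fold change 0.010 ± 0.709, limma adjusted p = 0.996). Neither differed beyond the spread of replicates.

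Levels were compared between genes per length, which does not make them fully comparable. MT-ATP8 and MT-ATP6 share a message, yet stood at 35926 and 122400 normalized counts per kilobase in the wild type (means of 3). Per kilobase of annotated length, MT-CO2 was highest in both genotypes, at 316930 ± 171211 normalized counts per kilobase in the wild type and 307098 ± 186940 in the knockout, and MT-CO3 was next. MT-CYB ranked 3 in the wild type and 5 in the knockout, and MT-ND2 ranked 7 and 4. MT-ND3 was last in the wild type, at 18219 ± 15535, and MT-ND5 was last in the knockout, at 22618 ± 12830. The standard deviations of neighbours in this order overlapped.

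The wild-type replicates differed most for the shortest messages, while in the knockout some longer messages lay among them. Between the highest and lowest wild-type replicate the level differed 4.70-fold for MT-ATP8 (207 bases), 4.43-fold for MT-ND4L (297 bases) and 4.40-fold for MT-ND3 (346 bases). It differed only 1.47-fold for MT-CYB (1141 bases), 1.53-fold for MT-CO1 (1542 bases) and 1.62-fold for MT-ND5 (1812 bases). In the knockout the fold range ran from 2.01 for MT-CO1 to 6.74 for MT-ND4L. There the longer MT-ND6 (525 bases, 6.61-fold) and MT-ND1 (956 bases, 5.75-fold) lay above MT-ATP8 (5.21-fold) and MT-ND3 (4.97-fold). Across the 13 genes, which share libraries and are not independent replicates, the log2 fold range and log2 length had a Pearson r of -0.86 in the wild type and -0.64 in the knockout (Spearman rho -0.81 and -0.69). The fold ranges of the 2 genotypes had an r of 0.87 across the same genes.

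Wild-type replicate 2 and knockout replicate 1 set the top of this spread. Wild-type replicate 2 held from 1.34-fold (MT-CYB) to 4.70-fold (MT-ATP8) the level of wild-type replicate 1, and knockout replicate 1 held from 1.92-fold (MT-CO1) to 6.74-fold (MT-ND4L) that of knockout replicate 2. Wild-type replicates 1 and 3 differed 1.03-fold in the summed level of the 13 mRNAs, and knockout replicates 3 and 2 differed 1.38-fold.

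**Figure D2:**
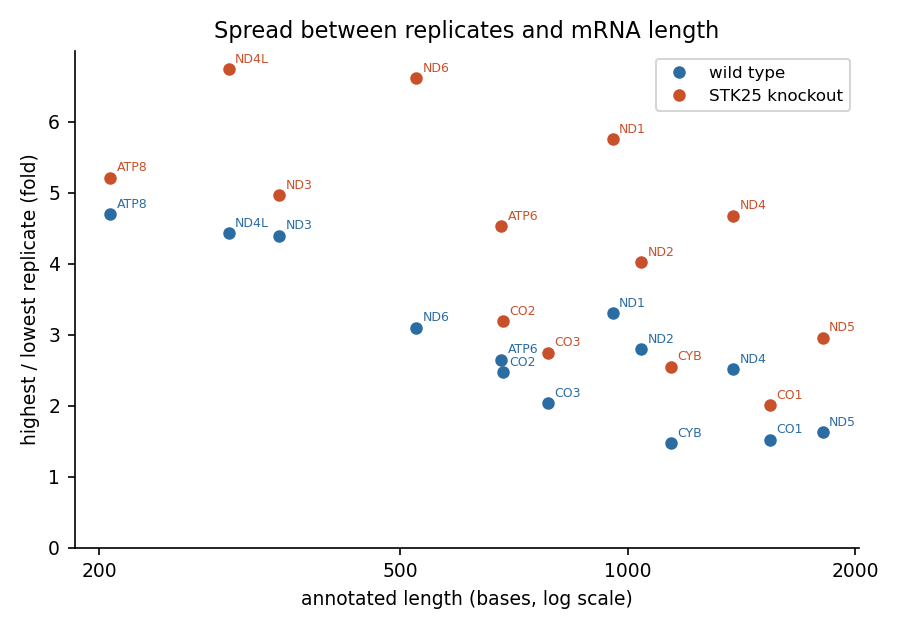
Highest over lowest replicate level (fold, y axis) of each mitochondrial mRNA against its annotated length in bases (log scale, x axis), 1 point per gene and genotype. In the wild type only MT-ATP8, MT-ND4L and MT-ND3, the shortest messages, lie above 4-fold. In the knockout MT-ND6 (6.61), MT-ND1 (5.75), MT-ND4 (4.68), MT-ATP6 (4.53) and MT-ND2 (4.03) do so as well.

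Without wild-type replicate 2 and knockout replicate 1, limma called 3 of the 13 mRNAs, all lower in the knockout, where 28.9% of all genes were called and 14% called lower. The 3 were MT-CYB at -0.96 (adjusted p = 0.0044), MT-ND5 at -0.94 (adjusted p = 0.0052) and MT-ND6 at -0.89 (adjusted p = 0.0018) on the log2 scale. They are the last 3 genes of the map, and for MT-ND6 reads from either strand cannot be told apart. Leaving out knockout replicate 1 alone called MT-CYB at -1.12 (adjusted p = 0.0376) and MT-ND5 at -1.17 (adjusted p = 0.0424), and leaving out any other single library called none. This choice of libraries was made after their values were seen.

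The make-up of the mitochondrial mRNA pool, with each mRNA as a percentage of the summed 13, divides out the summed level of the pool. On that scale 3 of the 13 mRNAs did not overlap between genotypes, where 16.3% of all tested genes taken relative to the same sum did not overlap (10.5% higher and 5.74% lower in the knockout). MT-ND2 made up 6.37%, 7.84% and 5.95% of the pool in the wild type and 11.2%, 9.45% and 9.05% in the knockout, so all knockout libraries were higher. MT-ND5 made up 7.09%, 5.58% and 7.39% in the wild type and 4.05%, 4.65% and 4.90% in the knockout, so all knockout libraries were lower. MT-CYB made up 17.9%, 11.6% and 16.7% in the wild type and 8.46%, 11.3% and 11.3% in the knockout, and here wild-type replicate 2 lay only just above knockout replicates 2 and 3.

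The means of these shares were 6.72 ± 0.99% and 9.90 ± 1.14% for MT-ND2, 6.68 ± 0.97% and 4.53 ± 0.44% for MT-ND5, and 15.4 ± 3.4% and 10.3 ± 1.6% for MT-CYB, wild type and knockout in turn (SD, n = 3). Each gave a two-sided exact permutation p of 0.1, the smallest that 3 against 3 libraries allow, before any adjustment for the 13 shares compared. Shares sum to 100%, so they are not independent of each other. Nor were they free of the spread between replicates, since the mRNAs did not rise by the same fold in the 2 high libraries. Wild-type replicate 2 and knockout replicate 1 had the highest MT-ND2 share and the lowest MT-ND5 and MT-CYB shares of their genotypes. The part of this in the share differences was not tested. With counts divided by length before the shares were taken, MT-ND2 and MT-ND5 again did not overlap and MT-CYB did (exact permutation p = 0.3).

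MT-CO2 was the largest share in every library, at 19.9% to 23.1% (wild type) and 21.4% to 24.4% (knockout) of the pool. Complex IV messages made up 43.7 ± 1.1% of the pool in the wild type and 46.4 ± 5.1% in the knockout, and complex I messages 32.2 ± 3.0% and 32.9 ± 5.1%. Within complex I the higher share of MT-ND2 stood beside the lower share of MT-ND5, while the summed share of its 7 messages overlapped between genotypes. MT-ATP6 made up 8.05 ± 1.11% and 9.69 ± 1.45%, which overlapped (exact permutation p = 0.3).

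**Figure D3:**
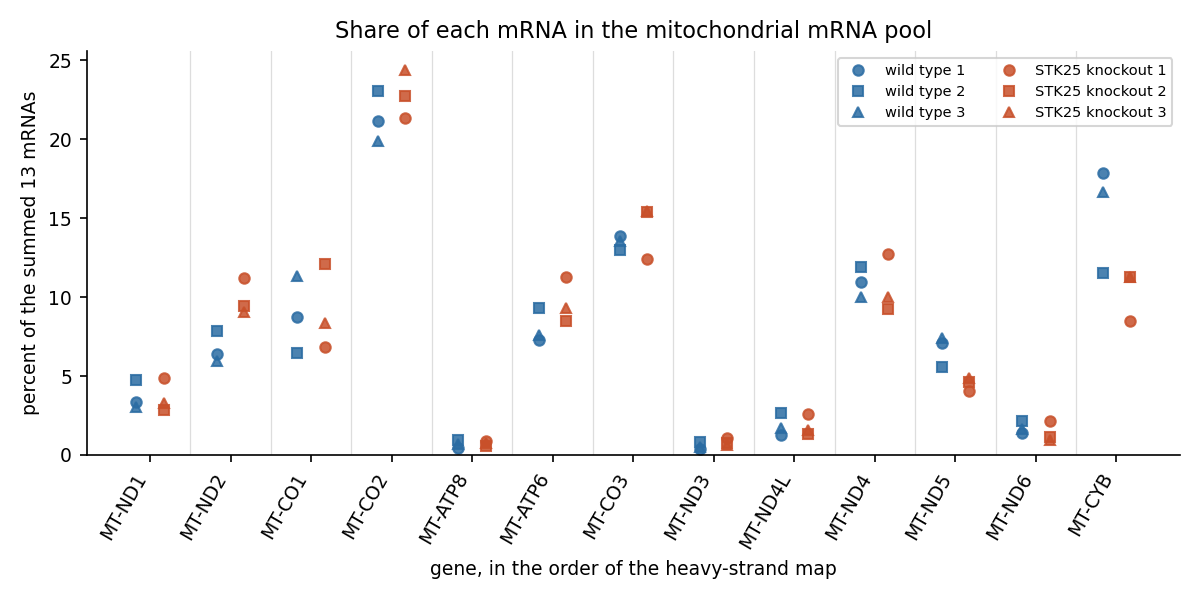
Each mitochondrial mRNA as a percentage of the summed 13 mRNAs (y axis), in the order of the map, with 1 point per library. MT-ND2 is higher and MT-ND5 and MT-CYB are lower in every knockout library than in every wild-type library, and the other 10 overlap.

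Ratios between these 3 messages, chosen after their shares were seen, need no scaling between libraries. MT-CYB stood at 2.80, 1.47 and 2.80 times MT-ND2 in the wild type and at 0.756, 1.19 and 1.24 times in the knockout. MT-ND5 stood at 1.11, 0.712 and 1.24 times MT-ND2 in the wild type and at 0.362, 0.492 and 0.542 times in the knockout. Both ratios were lower in every knockout library, which the separated shares they were chosen from had already fixed. MT-CYB relative to MT-ND5 was 2.28 ± 0.22 in the wild type and 2.27 ± 0.17 in the knockout, and this ratio overlapped between genotypes.

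For each of the 13 genes the difference of mean log2 shares was taken, knockout minus wild type. It ran from 0.61 for MT-ND3 and 0.56 for MT-ND2 to -0.55 for MT-ND5 and -0.56 for MT-CYB. Against the start position on the map its Pearson r was -0.63 and its Spearman rho -0.65, and over the 12 messages of the same strand -0.58 and -0.56. These are descriptions over genes that share libraries. Libraries of 1 genotype differed in the make-up of their pools by as little as 4.30% (wild-type replicates 1 and 3) and 4.43% (knockout replicates 2 and 3) of the pool. Pairs across genotypes differed by 6.91% to 17.2%, and pairs within a genotype by up to 13%, so the make-up of a pool did not sort all libraries by genotype.

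A fit with the log2 summed level of the 13 mRNAs as a covariate, added after the values were seen, called 5 of the 13, where 42.1% of all genes were called, 21.3% higher and 20.9% lower. MT-ND2 (0.60), MT-ATP6 (0.31) and MT-ND3 (0.70) were higher and MT-ND5 (-0.59) and MT-CYB (-0.62) lower on the log2 scale. The covariate is built from the members themselves, and the share of genes called was high in general, so these calls describe the fit.

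The mitochondrial messages work with nuclear-encoded partners, so their levels were set against 82 nuclear genes of complexes I to V. The summed 13 mRNAs stood at 0.567, 0.689 and 0.556 times the summed nuclear subunit mRNAs in the wild type and at 0.445, 0.282 and 0.309 times in the knockout. Every knockout library was below every wild-type library, including the 2 that stood apart. Taken relative to the summed 13 mRNAs, 10.5% of all tested genes were likewise higher in every knockout library. The mean ratio was 0.604 ± 0.074 in the wild type and 0.345 ± 0.087 in the knockout (SD, n = 3; two-sided exact permutation p = 0.1, the smallest allowed). The ratio of geometric means, which weighs all subunits alike, was 4.06 ± 0.70 and 2.58 ± 0.83 and did not overlap either. Here knockout replicate 1, at 3.54, lay only just below wild-type replicate 1, at 3.57. Set against the summed mRNAs of 78 mitochondrial ribosomal proteins instead, the 13 mRNAs overlapped between genotypes, at 2.20, 3.02 and 2.25 times that sum in the wild type and 2.26, 1.284 and 1.42 times in the knockout (exact permutation p = 0.3).

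Split by complex, after the values were seen, the ratio of sums separated the genotypes in complexes III and IV. Relative to the summed mitochondrial mRNAs, 16.3% of all tested genes did not overlap between genotypes. The mitochondrial part of complex III is MT-CYB alone, whose share of the pool had already separated the genotypes. In complex IV the mitochondrial mRNAs stood at 1.43, 1.32 and 1.42 times the nuclear ones in the wild type and at 0.715, 0.758 and 0.729 times in the knockout. In complex III the ratio was 0.857, 0.685 and 0.778 in the wild type and 0.279, 0.236 and 0.260 in the knockout. The size of the complex IV difference depended on how subunits were combined. By sums the knockout mean was 52.9% of the wild type, and by geometric means, in which COX7A1 with its 0 counts weighs as much as any other subunit, it was 79.8% (30.6 ± 2.8 against 24.4 ± 1.0). For complex III it was 33.4% by sums and 33.1% by geometric means. Within a genotype the ratios of sums of complexes III and IV varied little although the mitochondrial share of all counts varied from 1.25% to 3.33% among the knockout libraries. In the knockout the ratio varied more in complex I, from 0.342 to 0.633, and in complex V, from 0.063 to 0.167. In complex I the ratio was 0.703 ± 0.109 and 0.450 ± 0.159, and in complex V 0.142 ± 0.055 and 0.104 ± 0.056, and both overlapped (exact permutation p = 0.2 and 0.5).

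**Figure D4:**
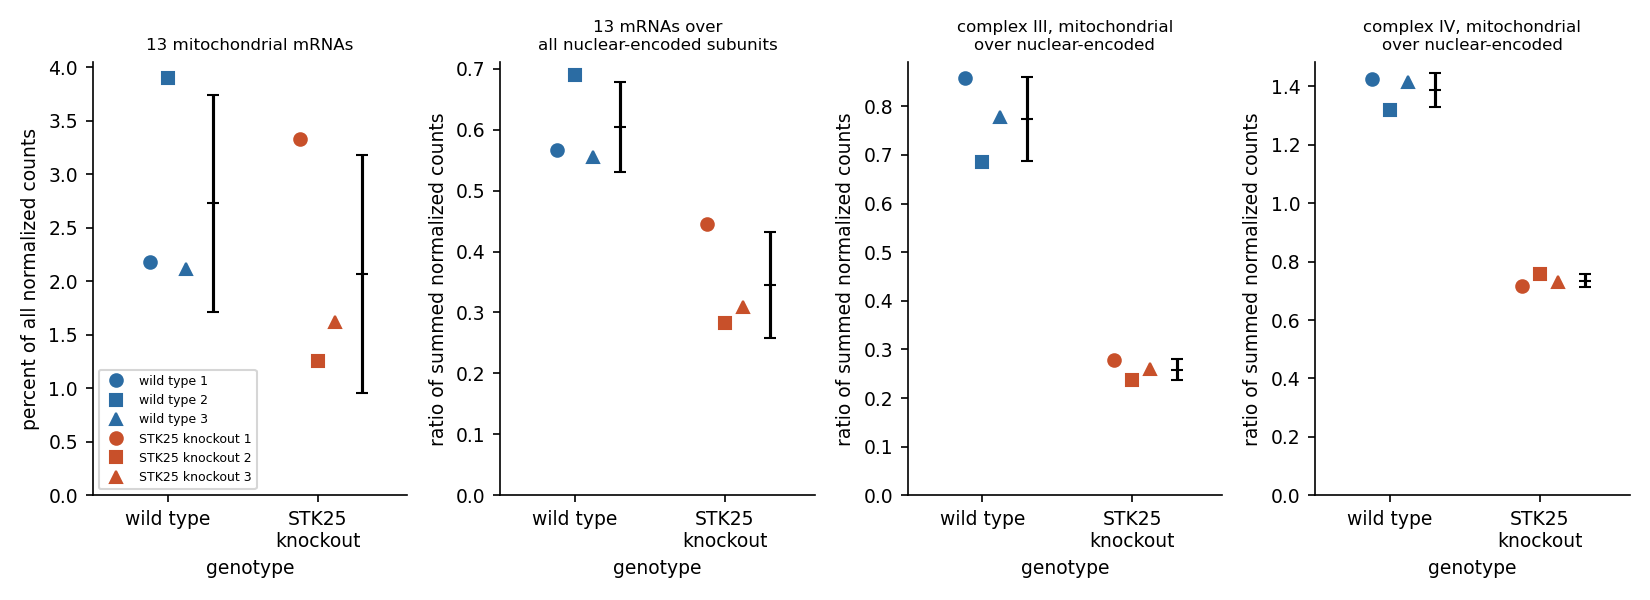
Percentage of all normalized counts in the 13 mitochondrial mRNAs, and the ratio of summed mitochondrial to summed nuclear-encoded subunit mRNA for all complexes, complex III and complex IV. Points are libraries and bars the mean ± SD of 3; the share overlaps between genotypes, and the 3 ratios do not.

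Few nuclear subunits passed the test one by one. limma called 2 of the 81 tested, or 2.47% against 12.8% of all genes, while 77 of the 81 log2 fold changes were positive. Their median was 0.61, and 0.33 when libraries were scaled to equal totals. UQCRC2, a core subunit of complex III, rose from 9300 ± 759 to 19665 ± 2678 normalized counts (log2 fold change 1.07 ± 0.19, limma adjusted p = 0.0114). Scaled to equal totals its value was 0.79 (limma adjusted p = 0.0738), and its call was lost without replicate 1 or 3 of the wild type or replicate 3 of the knockout. COX7A1, the heart and muscle form of a small complex IV subunit, fell: it stood at 36.3, 92.9 and 62.5 normalized counts in the wild type and at 0 in all 3 knockout libraries, at least 19.5-fold lower against a floor of 3 reads per library.

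By complex the median log2 fold change of the nuclear subunits was 0.54 for complex I, 0.33 for complex II, 0.76 for complex III, 0.72 for complex IV and 0.63 for complex V. The mitochondrial members had medians of -0.22, -0.75, -0.10 and 0.04 for complexes I, III, IV and V. Without wild-type replicate 2 and knockout replicate 1, 54 of the 81 nuclear subunits were called, 52 of them higher, where 28.9% of all genes were called and 14.9% called higher. This choice was made after the values were seen. The 2 libraries also had the highest nuclear subunit share of their genotypes, 5.66% and 7.49% of all counts. Leaving them out narrowed the spread of these genes, so the calls describe that fit only.

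**Figure D5:**
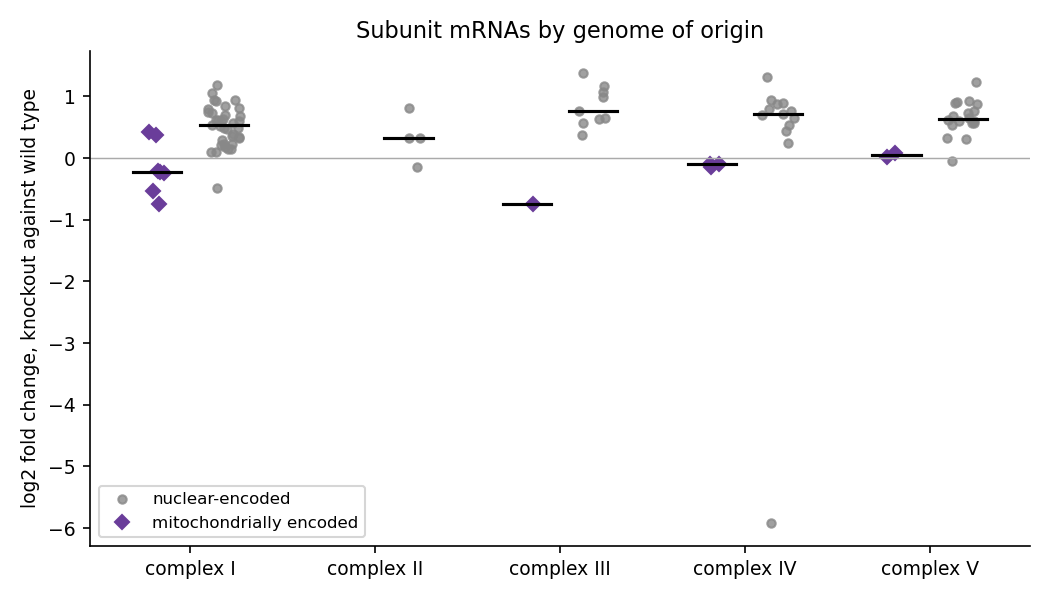
Log2 fold change of each subunit mRNA, knockout against wild type (y axis), by respiratory complex and genome of origin, with black bars at the medians. Nuclear-encoded medians lie between 0.33 and 0.76 and mitochondrially encoded ones between -0.75 and 0.04, and the lowest point is COX7A1.

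Markers of cell types moved with the genotype beside these ratios. The summed level of 11 cardiomyocyte markers was 1312145 to 1631667 normalized counts in the wild type and 1850186 to 3364494 in the knockout, which did not overlap (33.4% of all tested genes had levels that did not overlap). Relative to that sum, the 13 mRNAs stood at 0.563, 0.934 and 0.532 in the wild type and 0.493, 0.264 and 0.296 in the knockout, lower in every knockout library. Among all tested genes, 10.5% were higher in every knockout library relative to the summed 13 mRNAs. The nuclear subunits relative to the same sum overlapped, at 1.10 ± 0.22 and 1.00 ± 0.09. Within the marker list 2 of 11 genes were called, NKX2-5 and PLN, both lower in the knockout (6.79% of all genes were called lower), and 6 of 11 had positive log2 fold changes.

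Among markers of other cells, set against 12.8% of all genes called (5.97% higher and 6.79% lower), 3 of 5 tested neural genes (SOX2, PAX6 and TUBB3) were called higher, with a summed level of 61.2 to 128 normalized counts in the wild type and 459 to 831 in the knockout. Fibroblast genes had 3 of 8 called higher (COL3A1, DCN and TCF21) and 1 lower (COL1A2; sums of 12950 to 26529 and 8205 to 16655), and epicardial sums were 99.7 to 172 and 246 to 456. Endoderm and liver genes had sums of 1659 to 3003 and 1191 to 1248, with 1 of 3, AFP, called lower. Pluripotency sums were 352 to 480 and 486 to 499, and endothelial sums 173 to 477 and 418 to 584. FOXA2 stood at 0 in all libraries, and CDH5, MSLN and VWF had at most 7.55 normalized counts in any. The part of these cell types in the mitochondrial values was not tested.

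The genes that copy, transcribe and process the mitochondrial genome were described from lists chosen for their roles. None of 10 transcription genes was called, where limma called 12.8% of all genes, and 9 of the 10 log2 fold changes were positive, with a median of 0.19. POLRMT, the mitochondrial RNA polymerase, had a log2 fold change of 0.26 ± 0.26, and TFAM, which packages the genome and starts transcription, 0.20 ± 0.24. TFB2M, the factor that opens the promoter, and TEFM, the elongation factor, had values of 0.02 ± 0.22 and 0.15 ± 0.26. MRPL12, a ribosomal protein that also binds the polymerase, had 0.19 ± 0.28.

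Of 12 genes of genome maintenance 1 was called, or 8.33% against 12.8% of all genes. TK2, the mitochondrial thymidine kinase, fell from 507 ± 60 to 257 ± 35 normalized counts (log2 fold change -0.98 ± 0.24, limma adjusted p = 0.0368). POLG, the replicative polymerase, and TWNK, the helicase, were not called, at 0.48 ± 0.30 and 0.20 ± 0.36. The other 9 were not called either. The call of TK2 was lost when any 1 library other than knockout replicate 1 was left out (adjusted p up to 0.147).

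Of 22 genes for processing and modifying mitochondrial RNA, 2 rose and 2 fell, or 18.2% called against 12.8% of all genes. TRMT10C, a subunit of the enzyme that cuts the 5′ ends of transfer RNAs out of the primary transcript, rose from 3106 ± 637 to 6780 ± 1358 normalized counts (log2 fold change 1.13 ± 0.23, limma adjusted p = 0.0187). MRM2, which methylates the large ribosomal RNA, rose by 0.75 ± 0.17 (limma adjusted p = 0.0291). FASTK, a member of a family of mitochondrial RNA regulators, fell from 5949 ± 371 to 2959 ± 102 (log2 fold change -1.01 ± 0.17, limma adjusted p = 0.0081). GTPBP3, which modifies transfer RNA wobble bases, had a log2 fold change of -1.49 ± 0.38 (limma adjusted p = 0.0418). GTPBP3 and MRM2 were not called when any 1 library other than knockout replicate 1 was left out, TRMT10C without wild-type replicate 1 or 3 or knockout replicate 3, and FASTK without wild-type replicate 1 (adjusted p = 0.0554). Scaled to equal totals MRM2 stood at 0.47 (limma adjusted p = 0.155).

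Of 10 genes for RNA stability and decay 1 was called, near the 12.8% of all genes. PDE12, a mitochondrial deadenylase that trims poly(A) tails, fell from 380 ± 105 to 159 ± 20 normalized counts (log2 fold change -1.22 ± 0.30, limma adjusted p = 0.0364). Its call was lost when any 1 library other than wild-type replicate 2 was left out (adjusted p up to 0.142). LRPPRC and SLIRP, the partner proteins that stabilise mitochondrial mRNAs, were not called, at 0.11 ± 0.36 and 0.69 ± 0.53. SLIRP stood at 7120, 17328 and 7194 normalized counts in the wild type and at 31718, 8343 and 14025 in the knockout, high in the same 2 libraries in which the mitochondrial mRNAs were high. LRPPRC stood at 4516, 2223 and 4169 and at 2427, 4902 and 4429, lowest of each genotype in those same libraries. PNPT1 and SUPV3L1, the degradosome's nuclease and helicase, had log2 fold changes of 0.15 ± 0.33 and 0.43 ± 0.32.

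None of 11 regulators of mitochondrial biogenesis was called, where limma called 12.8% of all genes. PPARGC1A and PPARGC1B, the coactivators that drive biogenesis, had log2 fold changes of 0.42 ± 0.30 and 0.18 ± 0.42, and NRF1, a transcription factor for respiratory genes, 0.15 ± 0.36. ESRRA, a nuclear receptor that acts with the coactivators, had 0.49 ± 0.20 (limma adjusted p = 0.17). Its levels were higher in every knockout library, where 33.4% of all tested genes did not overlap between genotypes, in either direction.

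The mitochondrial stress response list had 7 of 18 tested genes called, or 38.9% against 12.8% of all genes, of which 6 rose and 1 fell. TRIB3, a stress-induced pseudokinase, rose from 137 ± 24 to 851 ± 123 normalized counts (log2 fold change 2.63 ± 0.26, limma adjusted p = 0.00097), and CHAC1, a glutathione-degrading enzyme, rose by 2.52 ± 0.49 (limma adjusted p = 0.0155). ASNS, the asparagine synthetase, rose by 1.71 ± 0.21 (limma adjusted p = 0.0026), SHMT2, the mitochondrial serine enzyme of one-carbon metabolism, by 1.22 ± 0.17 (limma adjusted p = 0.0042), and DDIT3, the transcription factor CHOP, by 1.35 ± 0.30 (limma adjusted p = 0.0249). GDF15, a secreted stress hormone, fell from 938 ± 87 to 22.8 ± 20.2 normalized counts (log2 fold change -6.09 ± 0.99, limma adjusted p = 0.0075). These genes also respond to stress outside mitochondria. CHAC1 was not called without wild-type replicate 3 or knockout replicate 3, nor DDIT3 without those or wild-type replicate 1. Over all machinery lists limma called 13 of 83 genes, or 15.7%, but 5 when replicate 1 or 3 of the wild type or replicate 3 of the knockout was left out, and 8 without knockout replicate 2.

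Of 78 mitochondrial ribosomal protein genes, limma called 7, all higher in the knockout, or 8.97% against 12.8% of all genes. The median log2 fold change of the 78 was 0.24, and -0.038 with libraries scaled to equal totals, so its sign depended on the scaling. Leaving out replicate 1 or 3 of the wild type or replicate 3 of the knockout gave 0 calls, and leaving out knockout replicate 1 gave 3. Ribosomal RNAs of the mitochondrion are not analysed here.

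The nuclear genome carries old copies of mitochondrial genes, and their sequences bear on how reads were assigned. The table listed 408 such copies by symbol, 90 of them with a read and 18 with enough counts to be tested, and limma called none. Of the 31-base words in MT-CO1, 66.7% also occurred in nuclear copies, as did 62.8% for MT-ATP6 and 56.9% for MT-ND2. The share was 15.1% for MT-ND5, 4.95% for MT-CYB and 3.48% for MT-ND3. Across the 13 genes it had an r of 0.39 with the difference of mean log2 shares between genotypes (rho 0.43), as a description.

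MTATP6P1, a copy that shares 61.3% of its 31-base words with MT-ATP6, stood at 0.157 to 0.187 times MT-ATP6 in all 6 libraries. Copies outside the MTRNR2L family summed to 1.26% to 1.94% of the 13 mRNAs in the wild type and 1.61% to 2.13% in the knockout. The MTRNR2L copies resemble the large ribosomal RNA gene, and MTRNR2L12 shares 33.6% of its 31-base words with it. Together they took 0.635% to 1.27% of all counts in wild-type libraries and 0.416% to 1.09% in knockout libraries. They stood at 0.260 to 0.341 times the summed 13 mRNAs over the 6 libraries, a narrower range than that of the mRNAs themselves. Whether these counts come from the copies or from mitochondrial RNA cannot be told apart in gene totals.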

How the data were processed

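RNA was sequenced from 6 cardiomyocyte libraries, 3 per genotype. Per the labels' protocols, RNA was column-purified and treated with DNase; the kits were Clontech Ultra Low v4 for cDNA and NexteraXT for the libraries. The submitters' processing notes name bcl2fastq 2.19, kallisto 0.44.0, DESeq2 1.28.1 and GRCh38, without roles; the annotation and use of strand are not given in the sources used here. The deposited values are a signal that the authors call normalized counts. In every column 100% of values were whole multiples of 1 step (tolerance 1e-06), so reads were recovered. Columns were matched by name, with 0 unused. Of 35793 rows, 11622 held no read.

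Tests used limma 3.58.1 (R 4.3.3) on log2(value + 1), with eBayes trend, on the 15536 genes whose mean reached 10, Benjamini-Hochberg adjustment over all of them and a threshold of 0.05. Fold changes are on that log2 scale, ± the moderated standard error. Shares and ratios used the exact two-sided permutation test of 3 against 3. Other errors are SD. Alternatives were pseudocounts of 0.1 and 10, no filter, a mean of at least 50, 3 other scalings, eBayes without trend, the replicate number as a block, edgeR 4.0.16 and DESeq2 1.42.0 on recovered reads, and each library left out. Leaving out wild-type replicate 2 with knockout replicate 1, the covariate fit and the ratios by complex were added after seeing the data. Members, gene lists, named genes and tests were chosen with earlier results of these data known. Named genes are the members, STK25, 15 machinery genes given by name, and up to 6 called genes per machinery or subunit list; the called cell type markers, MTATP6P1 and MTRNR2L12 were named after their values were seen. GENCODE 29 (GRCh38) gave the positions, lengths and sequences of 13 of the 13 members, by symbol; levels per kilobase use its gene lengths. On simulated data (15536 genes) limma recovered 9 of 100 genes changed 2-fold and 73 of 100 changed 4-fold, with 1 false call. Figures were drawn with matplotlib 3.10.9.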

Additional observations from a re-analysis of the deposited data

How the results depend on the processing

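The genes called over the whole table numbered 798 with the replicate number as a block, 3210 with DESeq2, 6546 with the covariate, 4483 without wild-type replicate 2 and knockout replicate 1, and 796 to 2181 with 1 library left out. Replicate numbers did not pair the samples (correlations of same-numbered libraries were -0.235, -0.400 and 0.169). The highest correlation across genotypes, 0.448, was between wild-type replicate 2 and knockout replicate 1. With the block, limma called 0 of the 13 mRNAs, 3 machinery genes, 1 nuclear subunit and 0 ribosomal proteins; STK25 kept a value of -1.12 but its adjusted p was 0.0684. Of the 13 mRNAs, 5 were called with the covariate, 3 in the 2 against 2 fit and 0 to 2 with 1 library left out. Machinery genes called numbered 44 with the covariate, 34 in the 2 against 2 fit and 5 to 13 with 1 left out; nuclear subunits 76, 54 and 1 to 3, 11 with DESeq2, and 1 with a mean of at least 50 or either scaling to equal totals; ribosomal proteins 50, 26 and 0 to 7, 11 with DESeq2, 3 with no filter or equal totals without mitochondrial genes, and 2 with equal upper quartiles or no trend. Nuclear copies called numbered 2 with the covariate and 4 in the 2 against 2 fit. STK25 ran from -1.24 to -1.05, and its adjusted p was 0.0609 without wild-type replicate 1.

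Signs that turned were all of genes with no call in the limma fit of all 6 libraries without the covariate. MT-ND2, MT-ATP6 and MT-ND3, which were called higher with the covariate, were among them. With 1 library left out, log2 fold changes ran from -0.94 to 0.34 for MT-ND1, -0.23 to 0.85 for MT-ND2, -0.47 to 0.029 for MT-CO1, -0.55 to 0.32 for MT-CO2, -0.65 to 0.65 for MT-ATP8, -0.55 to 0.54 for MT-ATP6, -0.50 to 0.24 for MT-CO3, -0.30 to 1.08 for MT-ND3, -1.02 to 0.43 for MT-ND4L and -0.88 to 0.23 for MT-ND4. They ran from -0.13 to 0.15 for TFB2M, -0.051 to 0.52 for TWNK, -0.21 to 0.42 for LRPPRC, -0.071 to 0.49 for PNPT1, -0.16 to 0.47 for PPARGC1B, -0.15 to 0.33 for NRF1 and -0.032 to 0.40 for MRPL12. In the 2 against 2 fit MT-ATP8 was -0.0072, MT-ATP6 -0.084 and NRF1 -0.071. With the covariate MT-ND1 was 0.067, MT-CO2 0.097, MT-CO3 0.064, MT-ND4L 0.087, TFB2M -0.013 and LRPPRC -0.019. With equal totals, and with equal totals without mitochondrial genes, values were -0.27 and -0.28 for MT-ATP8, -0.20 and -0.21 for MT-ATP6, -0.086 and -0.096 for TFAM, -0.020 and -0.030 for POLRMT, -0.26 and -0.27 for TFB2M, -0.13 and -0.14 for TEFM, -0.078 and -0.088 for TWNK, -0.17 and -0.18 for LRPPRC, -0.13 and -0.14 for PNPT1, -0.11 and -0.12 for PPARGC1B, -0.13 and -0.14 for NRF1, and -0.091 and -0.10 for MRPL12.

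Differences of shares, knockout minus wild type, were 0.632 for MT-ND3 and -1.10 for MT-ND5 with counts per kilobase, and 3.07 percentage points for MT-CO2 without wild-type replicate 2 and knockout replicate 1. As ratios of geometric means the mitochondrial to nuclear difference was -1.48 for all complexes, -1.0 for complex I, -5.09 for complex III, -6.16 for complex IV and -0.37 for complex V; these means have other scales, and in percent of the wild type the knockout stood at 63.6, 64.9, 33.1, 79.8 and 66.5 in that order, against 57.2, 64.0, 33.4, 52.9 and 73.0 by sums. The causes were not tested. With 3 libraries a genotype no share or ratio could pass 0.05, and the simulated recovery of 2-fold changes was low, so a missed call does not show that levels were equal. The simulation drew each gene on its own. It held no shared rise of the mitochondrial mRNAs in single libraries, so its recovery rates are not those of the members.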
